A study of Mus musculus with 3 samples.

Results

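Carbonic anhydrases and beta subunits of the sodium pump were followed in mouse B cells treated with flavopiridol or JQ1+. The 8 genes were chosen by name from 33605 gene symbols. They are 5 carbonic anhydrases (Car2, Car4, Car5b, Car12 and Car13) and 3 beta subunits (Atp1b1, Atp1b2 and Atp1b3). They were picked with the flavopiridol values known, because Car2 and Atp1b1 rose strongly with that drug. Their changes in that contrast are therefore given as a description.

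All 3 libraries came from CD43- splenic B cells of C57BL/6 mice, grown for 3 days in lipopolysaccharide and interleukin-4. The groups were flavopiridol at 30 nM, JQ1+ at 80 nM and DMSO, with 1 library each. Flavopiridol inhibits cyclin-dependent kinases, including the kinase that releases paused RNA polymerase, and JQ1 displaces BET proteins from acetylated chromatin. With a single library per treatment no difference has a replicate check, no p-value is given, and whether the cultures shared mice is not stated in the labels.

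Carbonic anhydrases are zinc enzymes that interconvert carbon dioxide and bicarbonate, and so buffer the pH inside and around the cell. Car2 and Car13 are cytosolic enzymes, Car5b works in mitochondria, Car4 is tethered to the outer surface and Car12 spans the plasma membrane. The sodium pump uses ATP to export sodium and import potassium. Its alpha subunit carries out the transport, and its beta subunit is a glycoprotein needed to fold the pump and bring it to the surface.

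Levels are in RPKM, reads scaled to gene length and library size, which allows levels of different genes to be compared within a library. Summed counts were 50184508 for flavopiridol, 51247080 for JQ1+ and 59786847 for DMSO. Changes are log2 ratios of RPKM + 1. A gene was tested if it averaged 1 RPKM or more over the 3 libraries, and was called higher or lower if its change reached 1 in either direction, that is 2-fold. Of the 8 genes, 6 were tested. The lowest of them, Car12, averaged 1.11 RPKM, and of the others Atp1b2 averaged 0.164 and Car4 had 0. Ratios of plain RPKM carry 95% intervals for counting error only, which says nothing of the variation between cultures.

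Car2, the fast cytosolic enzyme, stood at 289 RPKM in flavopiridol, 1.498 in JQ1+ and 8.68 in DMSO. The 3 libraries were therefore far apart, with flavopiridol highest and JQ1+ lowest. Flavopiridol was 33.3-fold above DMSO (interval 27.6 to 40.4), a log2 change of 4.90. On this log2 scale with a pseudocount of 1 it ranked 1 of 14790 genes tested, but the lipase gene Lpl had the higher plain ratio, 43.4, and the higher change with a pseudocount of 0.1, 5.12 against 5.04 for Car2. JQ1+ was 5.80-fold below DMSO (interval 3.51 to 10.1), a log2 change of -1.95. By level per length Car2 was the 807th highest symbol in flavopiridol, the 13531st in JQ1+ and the 9916th in DMSO. Between the drugs the gap was 193-fold, with flavopiridol higher (interval 122 to 326), and it rests on 51 counts in the JQ1+ library against 8873 in flavopiridol.

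Car13, the other cytosolic enzyme, was the main carbonic anhydrase transcript of the DMSO cells. It had 104 RPKM in flavopiridol, 32.8 in JQ1+ and 69.2 in DMSO, the same order as Car2 over a much narrower range. With JQ1+ it was 2.11-fold below DMSO (interval 1.90 to 2.35), a log2 change of -1.05. That call lies just past the threshold and is lost at -0.95 after scaling by the median of ratios. With flavopiridol it was 1.51 times its DMSO level (interval 1.40 to 1.63), a log2 change of 0.59 that did not pass. Flavopiridol was 3.18-fold above JQ1+ (interval 2.87 to 3.53).

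The surface enzyme Car12 was low throughout, at 2.05 RPKM in flavopiridol, 0.222 in JQ1+ and 1.05 in DMSO. Its order of libraries was again flavopiridol, DMSO, JQ1+. Only the difference between the drugs passed the rule, with a log2 change of 1.32 and a plain ratio of 9.25 (interval 4.15 to 24.6). Against DMSO the JQ1+ value was -0.75, but -1.84 with a pseudocount of 0.1, past the threshold, since a pseudocount of 1 shrinks changes at this level. Its JQ1+ value rests on 19 counts.

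The mitochondrial enzyme Car5b differed little. It had 2.63 RPKM in flavopiridol, 2.58 in JQ1+ and 1.81 in DMSO. Both drugs stood slightly above DMSO, by log2 changes of 0.37 and 0.35, neither past the rule. The ratio of flavopiridol to JQ1+ was 1.02 (interval 0.771 to 1.35). Car4 had no reads in any library, where 3 counts would be 0.0598 CPM in flavopiridol, 0.0585 in JQ1+ and 0.0502 in DMSO, so it was not detectable at this depth.

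**Figure D1:**
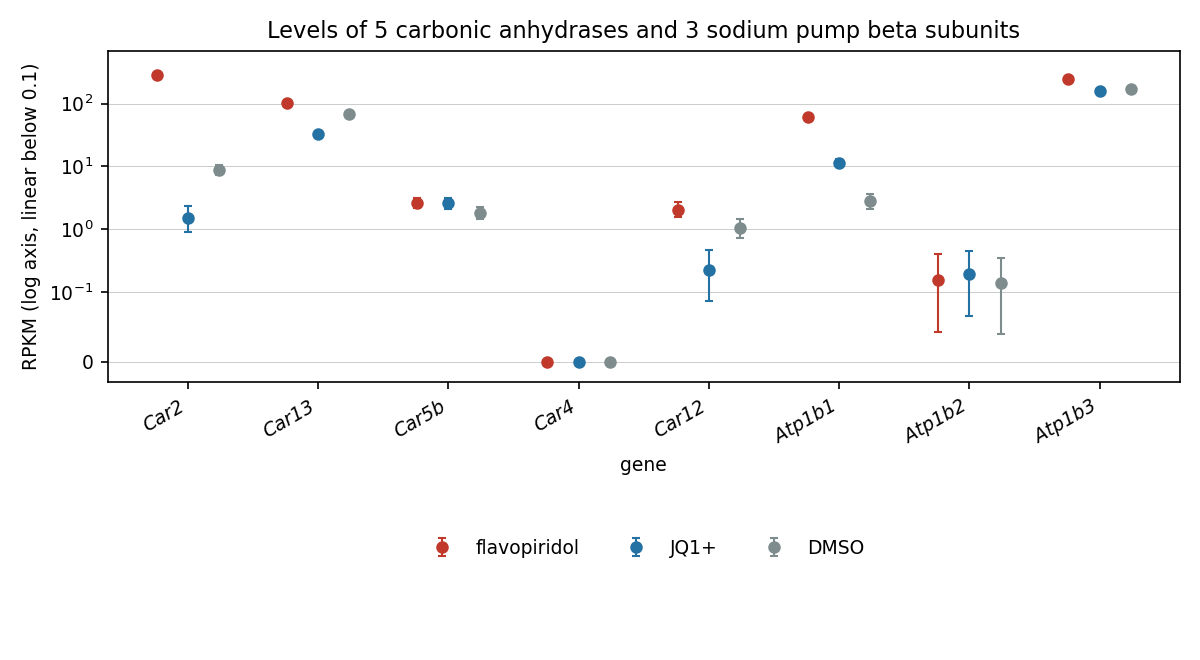
RPKM of the 8 genes (log axis, linear below 0.1) in flavopiridol (red), JQ1+ (blue) and DMSO (grey), with 95% exact Poisson intervals for counting error. Car2 spans 1.498 to 289 RPKM, while Atp1b3 stays between 157 and 245 and Car4, with no counts, is at 0.

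The make-up of carbonic anhydrase RNA differed between the libraries. Over the 16 genes of the family, RPKM summed to 410 in flavopiridol, 43.1 in JQ1+ and 88.4 in DMSO. Car2 made up 70.5% of that sum in flavopiridol, 3.47% in JQ1+ and 9.82% in DMSO. Car13 made up 25.5% in flavopiridol, 76.1% in JQ1+ and 78.3% in DMSO. The leading transcript was thus Car2 in flavopiridol and Car13 in the other libraries.

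Among beta subunits, Atp1b1, the form that pairs with the alpha subunit in most tissues, had 61.1 RPKM in flavopiridol, 11.3 in JQ1+ and 2.81 in DMSO. Both drugs stood above DMSO, flavopiridol by more. The rise with flavopiridol was 21.8-fold (interval 16.4 to 29.5), a log2 change of 4.03. It ranked 2 on the log2 scale with a pseudocount of 1, but was below Lpl on the plain ratio, with a pseudocount of 0.1 (4.396 against 5.12) and in CPM (3.93 against 4.402). With JQ1+ the rise was 4.03-fold (interval 2.94 to 5.62), a log2 change of 1.69, the 62nd highest of 14790 on the same scale. Flavopiridol was 5.40-fold above JQ1+ (interval 4.60 to 6.36).

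Atp1b3, a beta subunit found in many tissues, was the main one in every library. It had 245 RPKM in flavopiridol, 157 in JQ1+ and 174 in DMSO. Its log2 changes of 0.50 with flavopiridol and -0.15 with JQ1+ were within 2-fold, and so was the 0.64 between flavopiridol and JQ1+. Atp1b2, best known from brain, had 0.157 RPKM in flavopiridol, 0.195 in JQ1+ and 0.140 in DMSO, on 11, 15 and 12 counts. Its ratio of flavopiridol to DMSO was 1.12 with an interval from 0.208 to 5.83, so no difference was detectable at this depth.

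Atp1b1 grew as a share of beta subunit RPKM without overtaking Atp1b3. It was 19.9% of the sum in flavopiridol, 6.72% in JQ1+ and 1.59% in DMSO, and Atp1b3 was 80.0%, 93.2% and 98.3% in the same libraries. The summed beta RPKM was 307 in flavopiridol, 168 in JQ1+ and 177 in DMSO. Of 11 genes for the sodium pump and related pumps 3 were tested, and Atp1b1 was the only call with either drug against DMSO. Of all genes tested, 6.43% were called with flavopiridol and 7.27% with JQ1+. Atp1b1 was picked with the flavopiridol values known, so nothing is read from this count.

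**Figure D2:**
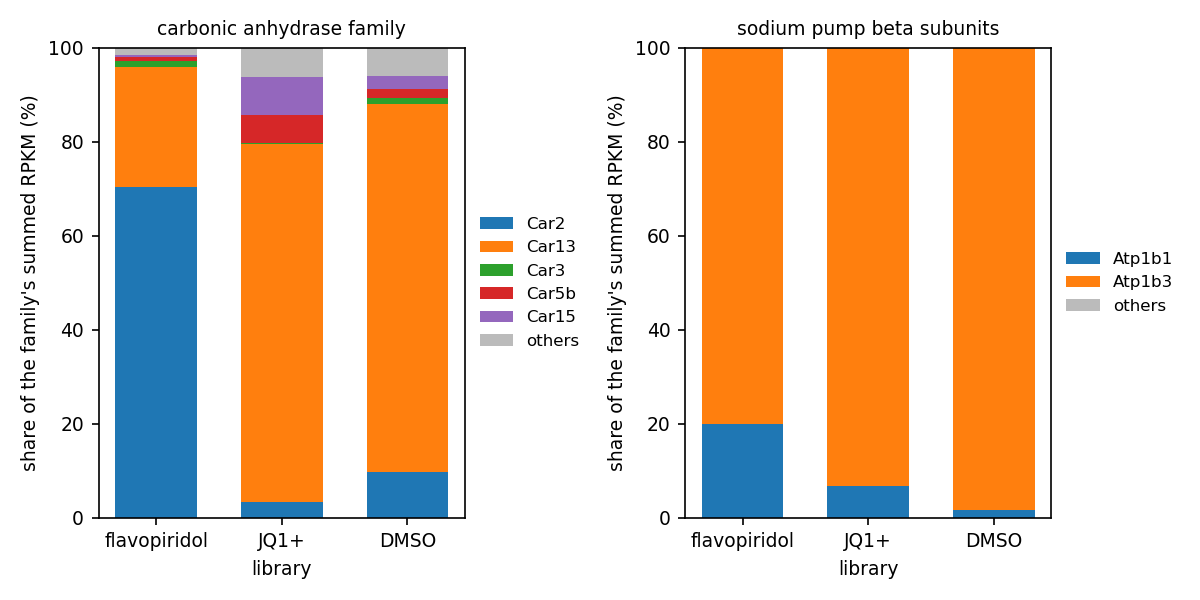
Share of the summed RPKM of 16 carbonic anhydrase genes (left) and 4 beta subunit genes (right) in the flavopiridol, JQ1+ and DMSO libraries, in percent. Car2 takes 70.5% in flavopiridol, 3.47% in JQ1+ and 9.82% in DMSO, and Atp1b1 takes 19.9%, 6.72% and 1.59%.

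The start regions of the 2 expressed beta subunit genes are shown because one of them rose with both drugs while the other stayed within 2-fold. They are RefSeq windows on GRCm38.p6, from 250 bases before to 50 after the gene's start, both on the minus strand, and are a later build than the mm9 of the measurements. For Atp1b3 the upstream of its 2 listed starts is shown. The windows lie at chr1:164458306-164458605 for Atp1b1 and chr9:96364382-96364681 for Atp1b3. Capitals mark the GC box GGGCGG, the CCAAT box, the run TATATA and the metal response core TGCGCNC, searched on both strands, with no match overlapping another.
Atp1b1: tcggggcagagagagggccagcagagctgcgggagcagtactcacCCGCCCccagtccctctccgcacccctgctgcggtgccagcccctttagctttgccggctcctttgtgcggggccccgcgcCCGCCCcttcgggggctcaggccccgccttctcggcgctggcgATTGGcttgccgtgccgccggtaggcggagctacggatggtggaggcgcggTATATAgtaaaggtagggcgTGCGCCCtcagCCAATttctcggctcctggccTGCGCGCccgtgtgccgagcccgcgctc
Atp1b3: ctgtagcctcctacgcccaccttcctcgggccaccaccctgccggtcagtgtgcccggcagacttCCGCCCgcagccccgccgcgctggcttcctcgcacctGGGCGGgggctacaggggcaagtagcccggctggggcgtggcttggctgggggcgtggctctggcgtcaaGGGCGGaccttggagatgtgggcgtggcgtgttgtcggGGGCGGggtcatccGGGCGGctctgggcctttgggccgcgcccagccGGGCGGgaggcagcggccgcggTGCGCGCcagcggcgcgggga

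The Atp1b1 window held 2 GC boxes, 2 CCAAT boxes, 1 TATATA run and 2 metal response cores, and was 71.0% G and C. The Atp1b3 window held 6 GC boxes and 1 metal response core, no CCAAT box and no TATATA run, and was 76.0% G and C. The window of the other listed Atp1b3 start, not printed, held 0 of each of these 4 motifs and was 74.7% G and C, so the counts depend on the start chosen. Of 32817 windows in the table, 35.6% held the GC box, 37.4% the CCAAT box, 5.67% the TATATA run and 15.4% the metal response core, and the median was 52.7% G and C. The metal response core, a motif known from metallothionein genes, was searched after the values of Mt1 and Mt2 below had been seen. Windows were found for 5 of the 8 genes, and Car2, Car13 and Atp1b2 had none.

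Set against all genes, the 6 tested genes were called as follows. With flavopiridol against DMSO, 2 were higher (Car2 and Atp1b1) and 0 lower, where 3.55% of all genes tested were higher and 2.88% lower, 6.43% in all. With JQ1+ against DMSO, 1 was higher (Atp1b1) and 2 lower (Car2 and Car13), against 1.98% higher and 5.29% lower of all genes, 7.27% in all. Between flavopiridol and JQ1+, 4 were higher in flavopiridol (Car2, Car12, Car13 and Atp1b1) and 0 lower, against 6.87% and 2.06% of all genes, 8.92% in all. Because the genes were picked for such changes and low ones reach the minimum mean only where they are high, nothing is read from these shares. The comparisons with DMSO share that library, and the drugs were used at different doses.

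RPKM is scaled to each library's total, and the scaling matters for the smaller changes. Scaling by the median of ratios moved the median of all genes by -0.16 in flavopiridol against DMSO, by 0.09 in JQ1+ against DMSO and by -0.25 between the drugs. For flavopiridol against DMSO 44.8% of called genes were lower as deposited, 62.4% with the median of ratios, 62.3% with TMM scaling and 55.6% with CPM. For flavopiridol against JQ1+ the share was 23.0% as deposited, 48.0% with the median of ratios and 46.2% with TMM. With the median of ratios the changes in flavopiridol against DMSO were 4.73 for Car2, 3.86 for Atp1b1, 0.42 for Car13 and 0.32 for Atp1b3, with no sign turned.

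**Figure D3:**
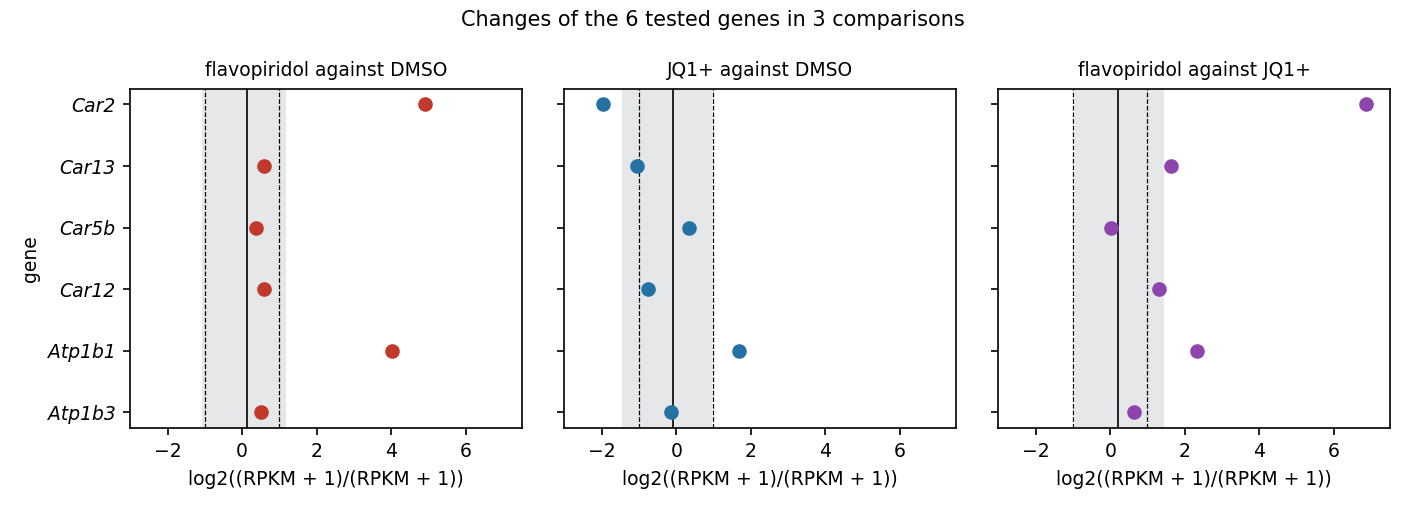
Log2 changes of the 6 tested genes in the 3 comparisons. Dashed lines mark the 2-fold threshold, the solid line the median of all 14790 genes and the grey band their central 95%. Car2 lies at 4.90, -1.95 and 6.86, and Atp1b1 at 4.03, 1.69 and 2.33.

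The order of levels among the 8 genes differed between libraries. In flavopiridol it ran Car2, Atp1b3, Car13, Atp1b1, Car5b, Car12, Atp1b2, Car4, and only the intervals of Car5b and Car12 overlapped among genes with counts. In JQ1+ it ran Atp1b3, Car13, Atp1b1, Car5b, Car2, Car12, Atp1b2, Car4, and the intervals of Car5b and Car2, and of Car12 and Atp1b2, overlapped. In DMSO it ran Atp1b3, Car13, Car2, Atp1b1, Car5b, Car12, Atp1b2, Car4, and the intervals of Atp1b1 and Car5b, and of Car5b and Car12, overlapped. Car4 had no counts, so no Poisson interval was computed for it and its separation from Atp1b2 was not tested.

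Car13, Car3 and Car2 lie in a cluster with Car1 on mouse chromosome 3, which allowed the neighbours to be compared. Car3, a cytosolic enzyme of low activity known from muscle and fat, lies next to Car2 on the same strand. It had 5.47 RPKM in flavopiridol, 0.070 in JQ1+ and 1.01 in DMSO, on 142, 2 and 32 counts. Its order of libraries was that of Car2 and Car13. Flavopiridol was 5.42-fold above DMSO (interval 2.81 to 11.4), a called rise of 1.69 on the log2 scale, and JQ1+ was 14.4-fold below DMSO with an interval from 1.66 to 2301. The JQ1+ change of -0.91 did not pass the rule, but was -2.71 with a pseudocount of 0.1.

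Car1, the erythroid enzyme between Car13 and Car3 on the opposite strand, had at most 2 counts in any library. Before Car13 lie Lrrcc1, E2f5 and 1810022K09Rik, all between 10.7 and 43.8 RPKM, with log2 changes from 0.32 to 0.44 for flavopiridol against DMSO and from -0.21 to 0.05 for JQ1+ against DMSO. None of these 3 genes passed 2-fold, where 6.43% of all genes tested did with flavopiridol and 7.27% with JQ1+ against DMSO. Lrrcc1 had the same order of libraries as Car13, Car3 and Car2, at 17.4 RPKM in flavopiridol, 10.7 in JQ1+ and 12.5 in DMSO. Over all genes tested the median changes against DMSO were 0.13 with flavopiridol and -0.08 with JQ1+. Gm9733, after Car2, had no reads. The gene order is that of GENCODE M21 on GRCm38.

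**Figure D4:**
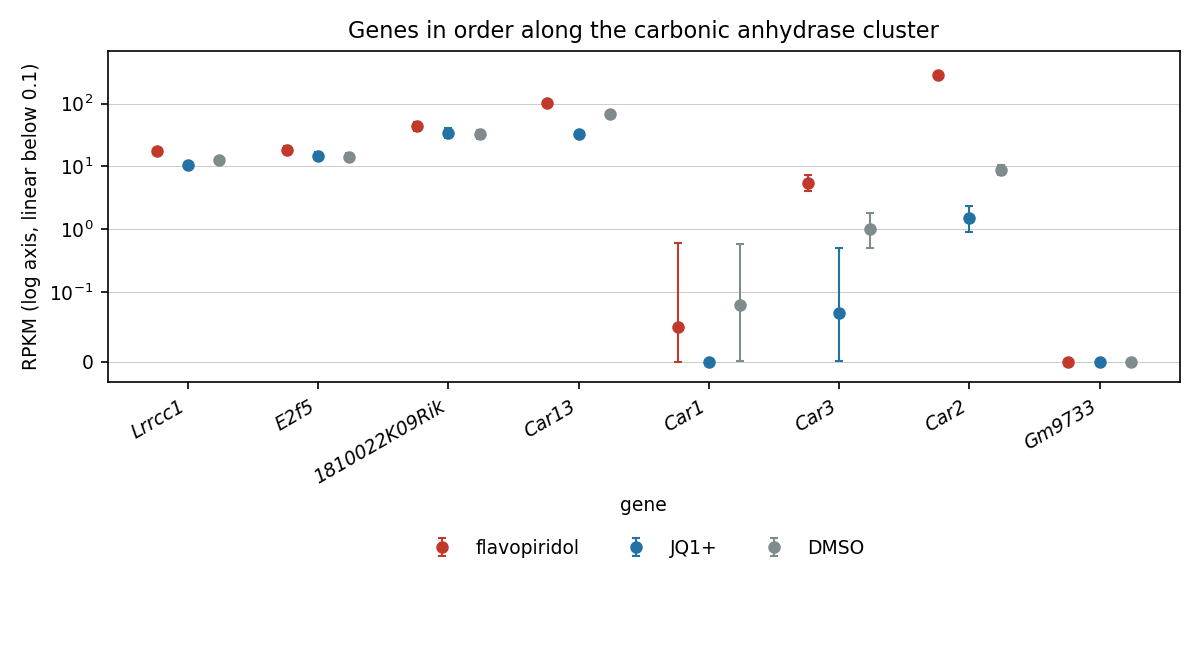
RPKM (log axis, linear below 0.1) of genes in their order along the carbonic anhydrase cluster in flavopiridol, JQ1+ and DMSO, with 95% exact Poisson intervals for counting error; genes at 0 have no interval. Car13, Car3 and Car2 are each highest in flavopiridol and lowest in JQ1+, and so is Lrrcc1 over a narrower range. Lrrcc1, E2f5 and 1810022K09Rik lie between 10.7 and 43.8 RPKM.

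Reads shared with other genes were assessed from runs of 36 bases in GENCODE M21 transcripts. Car2, Car3, Car4, Car13 and Atp1b2 shared 0 such runs with transcripts of other genes, Car12 0.131% and Car5b 6.57%. Atp1b1 shared 16.6% of its runs, with Nme7, which overlaps it on the opposite strand. Whether counting used strand is not given in the sources used here. Nme7 had 26.3 RPKM in flavopiridol, 18.9 in JQ1+ and 22.8 in DMSO, log2 changes of 0.20 and -0.26 against DMSO, where Atp1b1 had 4.03 and 1.69. Atp1b3 shared 14.2% with the pseudogene Gm1848, which was listed at 70.3 RPKM in flavopiridol, 47.4 in JQ1+ and 50.5 in DMSO, so the split of reads between Atp1b3 and Gm1848 is uncertain.

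Among the other neighbours, no tested gene next to Car4, Car5b, Car12, Atp1b1, Atp1b2 or Atp1b3 passed 2-fold. Of all genes tested only 6.43% were called with flavopiridol and 7.27% with JQ1+ against DMSO, so nothing is read from this. The nearest of Atp1b1 on each side were Blzf1, with 16.6 RPKM in flavopiridol, 10.9 in JQ1+ and 13.3 in DMSO, and Dpt, below 0.4 RPKM in every library. Beside Atp1b2 lie Trp53, the p53 gene, at 33.5 RPKM in flavopiridol, 24.9 in JQ1+ and 38.9 in DMSO, and Shbg, with no reads. Rnf7 and Tfdp2 beside Atp1b3 had log2 changes of 0.45 and 0.60 with flavopiridol, where Atp1b3 had 0.50. With JQ1+ they had -0.24 and 0.10, where Atp1b3 had -0.15. The medians of all genes tested were 0.13 with flavopiridol and -0.08 with JQ1+.

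The rest of the carbonic anhydrase family was mostly low. Of 16 genes 7 were tested. In flavopiridol against DMSO 2 of these 7 were higher, Car2 and Car3, and 0 lower. In JQ1+ against DMSO 0 were higher and 2 lower, Car2 and Car13. Between flavopiridol and JQ1+ 4 were higher, Car2, Car3, Car12 and Car13, and 0 lower. Of all genes tested, 3.55% were higher and 2.88% lower with flavopiridol against DMSO, and 1.98% and 5.29% with JQ1+ against DMSO. Between flavopiridol and JQ1+ these shares were 6.87% and 2.06%. The list medians were 0.57, -0.75 and 1.32, beside 0.13, -0.08 and 0.21 over all genes tested. Car3 and Car12 reached the minimum mean only through their flavopiridol levels. Car2, Car12 and Car13 were also picked with the flavopiridol values known. Nothing is therefore read from these counts and medians. Car14, a membrane-spanning enzyme, had 1.54 RPKM in flavopiridol, 1.42 in JQ1+ and 1.14 in DMSO, and the membrane-anchored Car15 had 2.23, 3.45 and 2.44. Car6 had no reads, and Car9, the hypoxia-induced surface enzyme, had 0.872 RPKM in flavopiridol, 0.288 in JQ1+ and 1.28 in DMSO, under the minimum mean.

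FXYD proteins are small membrane proteins that tune the pump. Of 7 genes 2 were tested. Fxyd5, also called dysadherin, had 51.4 RPKM in flavopiridol, 45.1 in JQ1+ and 102 in DMSO. It stood lower with both drugs, the reverse of Atp1b1. JQ1+ was 2.26-fold below DMSO (interval 2.11 to 2.41), a log2 change of -1.16 that passed the rule. The flavopiridol change of -0.97 lay just short of it, and passed at -1.14 with the median of ratios. Fxyd4 had 2.19 RPKM in flavopiridol, 0.664 in JQ1+ and 1.19 in DMSO, within 2-fold by the rule in each comparison, though 1.58 between flavopiridol and JQ1+ with a pseudocount of 0.1. The list medians were -0.22 and -0.78.

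Ion transporters that work beside these proteins were counted beside all genes tested, of which 6.43% were called with flavopiridol and 7.27% with JQ1+. Of 30 bicarbonate, proton and lactate transport genes 15 were tested, and 1 fell with each drug, the same gene, while 0 rose. It was Slc16a3, the lactate exporter of glycolytic cells, with 1.62 RPKM in flavopiridol, 0.778 in JQ1+ and 11.03 in DMSO. Its log2 changes were -2.20 with flavopiridol and -2.76 with JQ1+. The list medians were 0.09 and -0.05.

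Of 28 genes for sodium, potassium and chloride transport and its kinases 14 were tested. With flavopiridol 2 rose and 0 fell, and with JQ1+ 1 rose and 0 fell. Stk39, a kinase that switches on chloride cotransporters, had 14.0 RPKM in flavopiridol, 9.26 in JQ1+ and 4.22 in DMSO, log2 changes of 1.53 and 0.97, and with JQ1+ it passed at 1.07 with the median of ratios. Sgk1, a kinase that raises sodium transport in kidney epithelium, had 5.15, 4.199 and 1.45 RPKM in the same order, with rises of 1.33 and 1.09. The list medians were 0.02 and -0.11.

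Genes with the pair of log2 changes against DMSO most like those of Car2 and Atp1b1 were sought by Euclidean distance. The 9246 candidates were named genes averaging 5 RPKM or more over the 3 libraries. None was close to Car2, which was picked for its large rise with flavopiridol, so nothing is read from that distance. The nearest were Tnfsf8, the CD30 ligand, at a distance of 2.71, Tnfsf4, the OX40 ligand, at 2.91, the zinc importer Slc39a8 at 3.12, the glutathione transferase Gstt3 at 3.27 and the splicing regulator Hnrnpll at 3.44. Slc39a8 had 56.0 RPKM in flavopiridol, 7.09 in JQ1+ and 13.2 in DMSO, the same order of libraries as Car2, with log2 changes of 2.01 and -0.81.

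Atp1b1 had nearer genes. They were the metallothionein Mt2 at a distance of 0.76, the G protein regulator Rgs2 at 0.995, the lipase Lpl at 1.31, the metallothionein Mt1 at 1.48 and Rgs16 at 1.57. Mt2 had 27.7 RPKM in flavopiridol, 6.78 in JQ1+ and 1.88 in DMSO, and Mt1 had 134, 43.7 and 20.1. Each of these 5 genes rose with both drugs against DMSO, though Mt2 was within 2-fold with JQ1+ at 0.80 in CPM. Each had its highest level in flavopiridol. These genes, like those nearest to Car2, were chosen for closeness in these changes, so nothing is read from either trait.

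**Figure D5:**
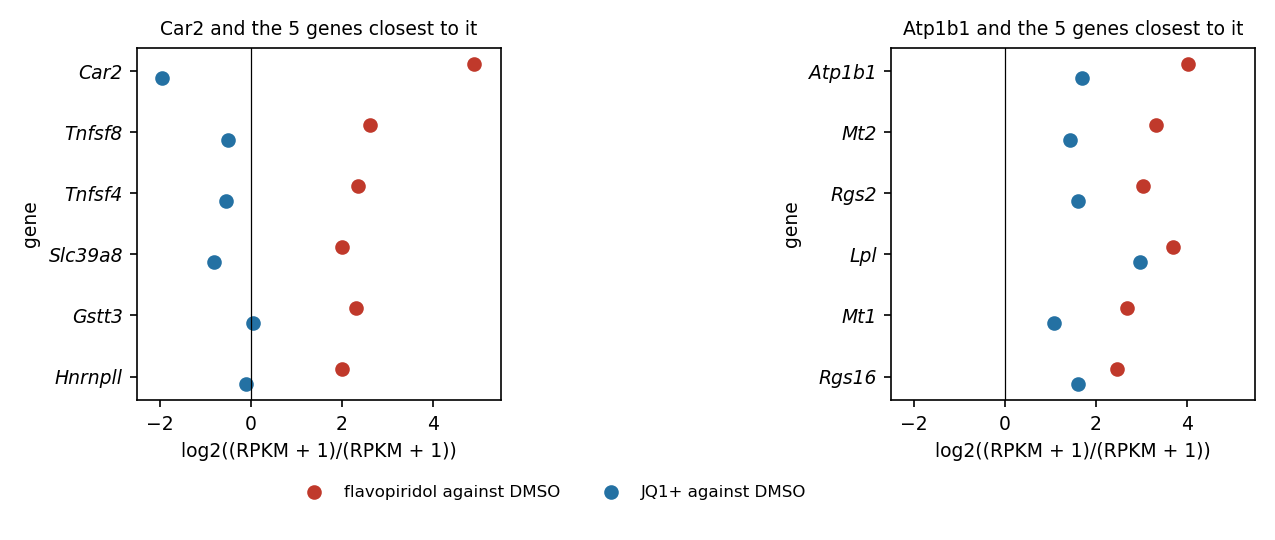
Log2 changes against DMSO in flavopiridol (red) and JQ1+ (blue) for Car2 and Atp1b1 and the 5 genes closest to each. The genes nearest to Car2 rise by at most 2.61 with flavopiridol against its 4.90, while those nearest to Atp1b1 rise with both drugs. The genes were chosen by these same changes, and Car2 and Atp1b1 were picked with their rises in flavopiridol known.

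In a bulk sample, fewer cells of a type and less RNA per cell cannot be told apart, so genes of other cells that use Car2 were read beside it. All 8 B cell markers averaged 1 RPKM or more, with summed RPKM of 3995 in flavopiridol, 4892 in JQ1+ and 4046 in DMSO. Of 12 erythroid markers matched, 2 averaged that much. The sum of the 11 without the transferrin receptor Tfrc, which dividing cells also use, was 3.33 in flavopiridol, 2.81 in JQ1+ and 3.17 in DMSO. The alpha globin genes Hba-a1 and Hba-a2 were at 0.043 RPKM or less in every library and Rhag at 0. Tfrc had 180 RPKM in flavopiridol, 81.4 in JQ1+ and 103 in DMSO.

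Osteoclast markers, 3 of 10 averaging 1 RPKM or more, summed to 55.3 RPKM in flavopiridol, 66.0 in JQ1+ and 119 in DMSO, and Dcstamp was at 0. The sum does not stand for each gene. With JQ1+ against DMSO 1 of the 3 was higher and 1 lower, beside 1.98% and 5.29% of all genes tested. With flavopiridol against DMSO 0 were higher and 1 lower, beside 3.55% and 2.88%. Macrophage markers, 3 of 12, summed to 21.9, 13.3 and 27.7. The 3 were Mpeg1, Csf1r and Emr1. Mpeg1 had 7.86 RPKM in flavopiridol, 4.54 in JQ1+ and 19.5 in DMSO, and Csf1r had 3.95, 4.03 and 6.41. Emr1, the F4/80 gene, was highest in flavopiridol like Car2, at 9.47 RPKM in flavopiridol, 0.801 in JQ1+ and 0.922 in DMSO, and its part in the result was not tested. Of the 12 genes 5 were at 0 in flavopiridol, 2 in JQ1+ and 2 in DMSO. Neutrophil markers, 0 of 8, summed to 1.64, 0.903 and 0.798, and platelet markers, 0 of 6, to 1.61, 1.73 and 1.43.

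Of the remaining marker lists, T cell genes summed to 21.4 RPKM in flavopiridol, 27.3 in JQ1+ and 26.3 in DMSO, and NK cell genes to 1.76, 2.04 and 3.10. Dendritic cell genes summed to 35.1, 10.7 and 90.0, and stromal and endothelial genes to 12.3, 5.61 and 22.5. Plasma cell genes summed to 2323, 2903 and 2910. None of these 5 sums was highest in the flavopiridol library. The neutrophil sum, at 1.64 RPKM, and the erythroid sum without Tfrc, at 3.33, were highest there. Of 6 plasma cell genes tested, 2 were higher and 0 lower with flavopiridol against DMSO, beside 3.55% and 2.88% of all genes. Whether the make-up of the cultures differed was not tested.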

How the data were processed

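Total RNA of 3 libraries was depleted of ribosomal RNA with Ribo-Zero and made into standard Illumina libraries, per the labels' protocols. The count column, per the file headers, holds unnormalised reads by gene. The RPKM column was made by the authors from gene length and library size, per the file headers. Their processing notes name the build mm9, while the aligner, counter, annotation and strandedness are not stated in the sources at hand.

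Tables were joined by Ensembl identifier. Of 33700 rows, 94 symbols had several, and the one of highest mean was used, leaving 33605 symbols. Changes used a pseudocount of 1 RPKM, which understates changes of low genes. No test was possible with 1 library per treatment. The total behind the RPKM was estimated from counts, RPKM and GENCODE M21 exon lengths. Summed counts were 2.72 to 2.92 times that total, so counts were divided by 2.83 for intervals. Ratio intervals are exact conditional binomial and level intervals exact Poisson, both at 95%. Floors are 3 undivided counts per library. Intervals and floors cover counting error only.

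The members and lists were chosen with earlier results of these data known. The genes named besides the members were the tested members of the carbonic anhydrase, pump and FXYD lists, the called members of the other lists (at most 4 each), neighbouring and overlapping genes, and the 5 closest genes to Car2 and to Atp1b1; 1 gene of the pump list is not reported here. Lrrcc1, E2f5, Car6, Car9, Gm1848 and the single markers named were singled out after their values were seen, and the promoter motifs were chosen after the values too. Changes and ratio intervals were tested on simulated data with undivided counts. Ratio intervals of divided counts or of genes with few counts were not checked this way, and neither were level intervals. Python 3.11.15, scipy 1.17.1 and, for TMM factors, edgeR 4.0.16 were used.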

Additional observations from a re-analysis of the deposited data

How the results depend on the processing

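No paired analysis was possible because each treatment had 1 library, and for the same reason no library could be left out. Car2 and Atp1b1 were called in the same direction in all 3 comparisons under each of the 8 alternative settings, with Car2 between 4.73 and 5.04 and Atp1b1 between 3.86 and 4.396 for flavopiridol against DMSO. Changing the minimum mean, keeping protein-coding genes only or summing the rows of a symbol left both genes' values unchanged. Those settings are therefore no check of the values, and only the pseudocount, the scalings and CPM could move them. Car13 in JQ1+ against DMSO was within 2-fold at -0.95 with the median of ratios, -0.97 with TMM scaling and -0.99 with CPM. Car12 in that contrast was past 2-fold at -1.84 with a pseudocount of 0.1. Besides the calls given in the report, Atp2a3 between flavopiridol and JQ1+ was lower past 2-fold at -1.07 with the median of ratios and -1.05 with TMM. Undivided counts narrowed the interval of Car2 in flavopiridol against DMSO to 29.8 to 37.3. Car4 and Atp1b2 are limited by depth.

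Counts of called genes moved by over 1.5 times as follows. For flavopiridol against DMSO, 525 genes were higher and 426 lower. Those higher were 867 with a pseudocount of 0.1, 229 with a minimum of 5 RPKM, 270 with CPM and 261 with protein-coding genes only, and those lower 256 with the minimum of 5 RPKM and 271 with protein-coding genes. For JQ1+ against DMSO, 293 were higher and 782 lower. Those higher were 503 with a pseudocount of 0.1, 138 with the minimum of 5 RPKM, 174 with CPM and 116 with protein-coding genes, and those lower 471 with the minimum of 5 RPKM. For flavopiridol against JQ1+, 1016 were higher and 304 lower. Those higher were 566 with the minimum of 5 RPKM, 575 with the median of ratios, 591 with TMM scaling and 633 with CPM, and those lower 172, 531, 507 and 193, and 84 with protein-coding genes. A minimum or a gene type tests fewer genes, and CPM also tested fewer, 13279 against 14790. For CPM, the pseudocount and the scalings the cause was not tested.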

Other observations

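Pumps of other kinds were counted beside all genes tested, of which 6.43% were called in flavopiridol and 7.27% in JQ1+ against DMSO. Of 9 calcium pump genes 5 were tested, and Atp2a3, which refills calcium stores in blood cells, rose with JQ1+, at 154 RPKM against 74.2 in DMSO, a log2 change of 1.04. In flavopiridol it had 88.1 RPKM. Of 25 vacuolar proton pump genes matched, 18 were tested and 0 passed 2-fold in either direction with either drug, with medians of 0.05 for flavopiridol and 0.14 for JQ1+ against DMSO.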
